A study of Mus musculus with 8 samples.

Results

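Heat-shock chaperones are described here through 10 genes chosen by symbol, Hspa1a, Hspa1b, Hspa8, Dnajb1, Dnaja1, Hsph1, Hsp90aa1, Hsp90ab1, Hspd1 and Hspe1, of 32285 genes counted. Their mRNA was measured in CD45.2-positive cells sorted from mouse brain by droplet-based single-cell RNA sequencing with a 10x Genomics 5′ kit, which counts captured transcripts by their unique molecular identifiers (UMIs). The 8 libraries comprised 1 for each condition: wild-type C57BL/6J mice (WT) and APPNL-G-F mice (APP), each as controls given water only, with acute colitis (2% dextran sulfate sodium, DSS, in drinking water for 7 days), with chronic colitis (3 cycles of 2% DSS for 5 days, alternating with water) and with food allergy, induced by sensitization to ovalbumin with alum and oral ovalbumin. APPNL-G-F mice carry a humanized amyloid-β sequence with the Swedish, Arctic and Iberian mutations, knocked into the mouse App locus, and all mice, of both sexes, were labelled as 16 weeks old. All mice were perfused with saline, and the brains were homogenized and passed through Percoll before the sort, so every library shared this preparation.

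Each library pooled cells that carried 4 antibody hashtags, and the cells of 1 hashtag in 1 library are called a hashtag group. There were 30 such groups with cells, and libraries and conditions cannot be told apart. The labels do not say that a hashtag is a mouse, and the study gives fewer mice than hashtag groups for chronic colitis in APP mice, so groups there may share a mouse and p-values between conditions may be too small. Levels are UMI counts scaled to a common total (CPM) and summed over the cells of a cell type in a hashtag group, with at least 20 cells. Gene UMIs came to between 26988646 and 56307389 per library, and between 2991 and 4777 cells per library were placed in 1 of 18 cell types by marker genes. Library pairs shared between 34 and 75 cell barcodes. In each library, 1 pair of hashtags had a higher background of hashtag counts than the other pair, and the pairs also differed in immediate-early transcripts: the 10 immediate-early genes summed, in T cells, to 2922.7–6207.8 CPM over the 16 high-background groups and 589.2–1678.8 CPM over the 13 low-background groups. Values are therefore also given by pair.

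Heat-shock chaperones bind unfolded proteins and help them to fold. The HSP70 proteins work in cycles of ATP binding with J-domain cochaperones, which deliver clients, and with nucleotide exchange factors, which release them. HSP90 proteins take over many signalling proteins late in folding, and the mitochondrial chaperonin encloses proteins imported into the matrix. Heat shock factor 1 (HSF1) drives many of these genes under proteotoxic stress through repeats of the motif nGAAn in their promoters. Hspa1a, Hspa1b and Dnajb1 are strongly inducible members, whereas Hspa8 and Hsp90ab1 are abundant in unstressed cells. Immediate-early genes such as Fos and Egr1 respond within minutes to stimulation, and in brain and immune tissue they are known to respond to enzymatic and mechanical dissociation.

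Heat shock elements were looked for as GAANNTTC or TTCNNGAA, which are the inverted pairs of the repeat, on the RefSeq promoter windows of GRCm38.p6, in the 250 bases before the start. Both motifs read the same on either strand, and overlapping matches were merged. Of 32851 windows, 12.8% held at least 1 of these motifs, and 0.466% held a run of 3 repeats. Windows were found for 7 of the 10 genes, with up to 3 starts each, and 7 of their 12 windows held a match, which is a description of the sequence and not of factor binding. They belonged to 6 genes, where 1 of 3 windows of Dnaja1, 1 of 2 of Hspd1 and both of Hsph1 matched. The sites are shown because they place the inducible pair and the chaperonin pair beside each other, with the motif in capitals.

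Hspa1a, chr17:34972242-34972271, minus strand: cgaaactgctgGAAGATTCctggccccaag
Hspa1b, chr17:34959324-34959353, minus strand: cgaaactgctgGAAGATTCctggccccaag
Dnaja1, chr4:40722333-40722362, plus strand: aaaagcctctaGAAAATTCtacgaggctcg
Hsph1, chr5:149636351-149636380, minus strand: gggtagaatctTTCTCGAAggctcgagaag
Hspd1, chr1:55088053-55088082, minus strand: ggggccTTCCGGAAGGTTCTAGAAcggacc
Hspe1, chr1:55088053-55088082, plus strand: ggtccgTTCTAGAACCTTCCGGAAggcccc

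The 30-base sites of Hspa1a and Hspa1b were identical, and 247 of the 250 bases before their starts matched (98.8%). The genes lie 9951 bases apart on chromosome 17, each has 1 exon, and 297 of the first 300 transcript bases were the same. How reads were split between them by the authors' counting is uncertain, and Hspa1a and Hspa1b values should be read together. Hspd1 and Hspe1 are divergent genes whose annotations overlap by 112 bases on chromosome 1. The same run of 18 bases lies before the start of Hspe1 and before 1 of the 2 starts of Hspd1, whereas it is inside the gene for the other Hspd1 start, whose window held no match. The 2 windows of Dnajb1 held no match, and no window was used for Hsp90aa1, Hsp90ab1 or Hspa8.

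The members were not uniform among cell types. Hspa1a, the inducible HSP70, averaged 100 ± 68.8 CPM in macrophages (SD over hashtag groups, n = 15) and 110 ± 77.6 CPM in conventional type 2 dendritic cells (n = 11), against 5.96 ± 8.40 CPM in T cells (n = 29). The means of conventional type 1 dendritic cells (27.6 ± 23.9 CPM, n = 16) and monocytes (20.9 ± 20.2 CPM, n = 21) lay between them. By pair, the monocyte medians were 17.4 CPM (high) and 1.4 CPM (low), and those of T cells 5.1 and 1.4 CPM. Monocytes thus lay above T cells by median in the high pair only. Both conventional dendritic cell types had groups of the high pair only. RNA outside cells held Hspa1a at between 2.78 and 32.7 CPM in the 8 libraries, with a median of 4.85 CPM. Thus T cells were near the level of free RNA, and the macrophage and type 2 dendritic cell means were above it. In the same fit, macrophages were higher than T cells in Hspa1a by 3.76 ± 0.28 on the log2 scale (edgeR quasi-likelihood test with Benjamini-Hochberg adjustment, adjusted p = 5.59e-24) and in its near-identical neighbour Hspa1b by 1.45 ± 0.26 (adjusted p = 7.02e-07). Every macrophage group with at least 20 cells belonged to the high-background pair, so the low pair is not represented in this contrast.

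**Figure D1:**
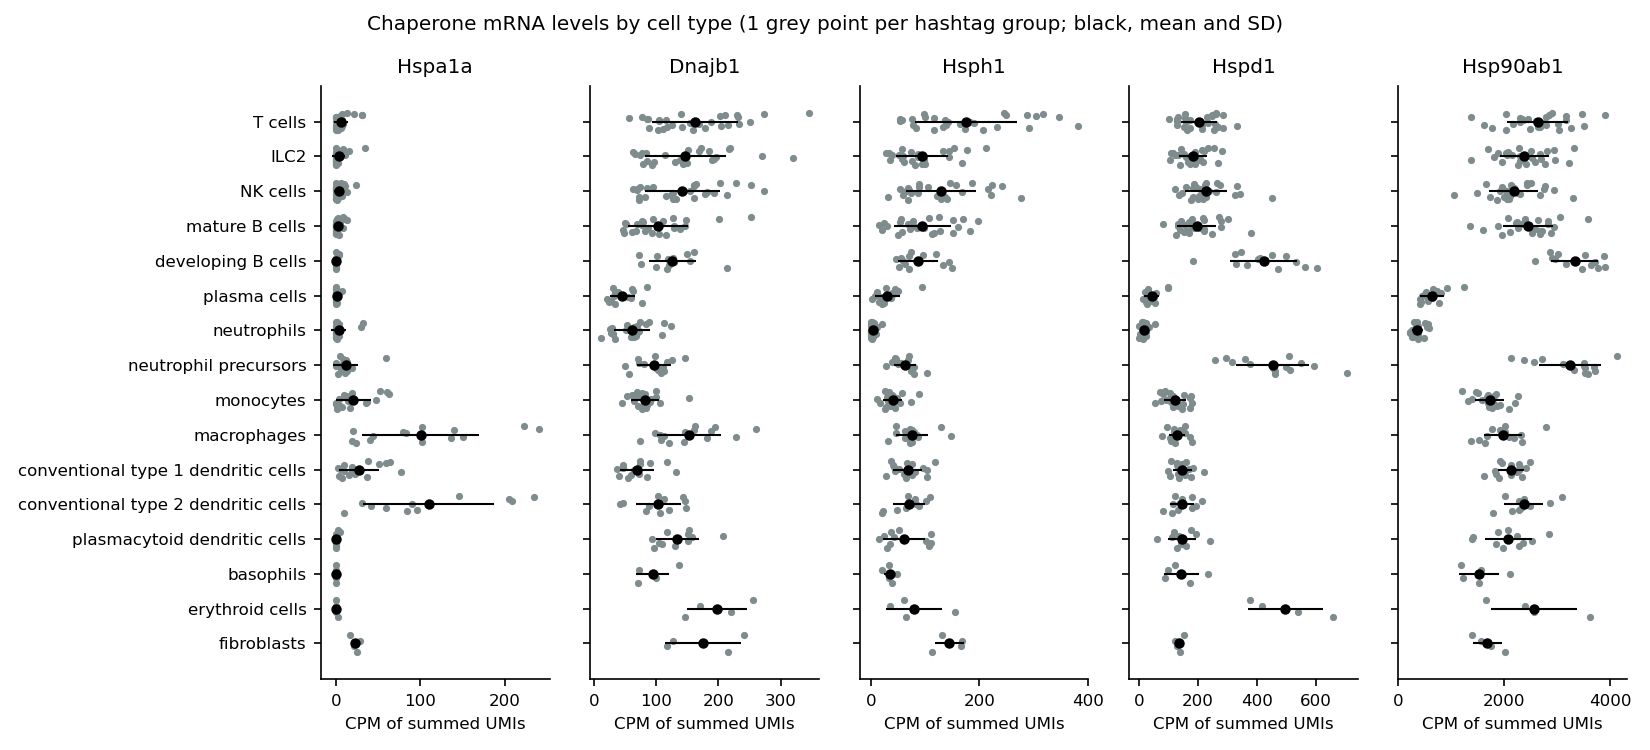
Levels of 5 chaperone genes by cell type, in CPM of summed UMIs on the horizontal axes, with 1 grey point per hashtag group and the mean and SD in black. Hspa1a stood out in macrophages and conventional type 2 dendritic cells, Hspd1 in developing B cells, neutrophil precursors and erythroid cells, and Hsph1, Hspd1 and Hsp90ab1 were lowest in neutrophils.

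Macrophages were lower than T cells in 6 members and higher in 2, where 37% of all genes were lower and 25.6% higher (62.6% called). Hsph1, the HSP110 exchange factor, differed by -1.28 ± 0.18 (SE) and Hspe1, the chaperonin lid, by -0.84 ± 0.13. Hspa8, the constitutive HSP70, differed by -0.31 ± 0.09 with TMM scaling. It was at 0.0036 ± 0.0629 with DESeq2 and 0.0022 ± 0.0739 with RLE size factors, so a difference was detected with TMM scaling only. Hsp90ab1 lost its call under both as well. The median of all genes in this contrast was -0.197, against 0.124 and 0.078 under these scalings, and the share of higher genes among those called went from 40.9% to 57.7% and 56.8%.

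Neutrophils had the least of the chaperone transcripts. The 10 members summed to 1024.2 CPM over all neutrophils, against 7882.3 CPM in T cells, and S100a8 and S100a9 took 28.5% of the neutrophil UMIs. Low-background group 7 of APP acute colitis, at 637.7 CPM, held 15847171 of the 36095717 neutrophil UMIs. The medians over groups were 1420.3 CPM in the high pair and 1039.9 CPM in the low pair, against 7754.7 and 8140.3 CPM in T cells. Of the 10 members, 7 were lower in neutrophils than in T cells and none higher, where 44.3% of all genes were lower and 37.6% higher (81.9% called). Hsph1 differed by -4.34 ± 0.20 on the log2 scale, Hspe1 by -3.10 ± 0.13 and Hspd1 by -2.37 ± 0.14. For Dnajb1 and Dnaja1, the J-domain cochaperones, the call depended on scaling. Dnajb1 averaged 61.0 ± 29.6 CPM in neutrophils and 162 ± 68.8 CPM in T cells, and Dnaja1 228 ± 87.9 and 571 ± 230 CPM. With TMM scaling the differences were -0.11 ± 0.11 and -0.12 ± 0.13 and were not called. Under RLE size factors they were -0.35 ± 0.11 (adjusted p = 0.00278) and -0.29 ± 0.13 (adjusted p = 0.0297), and DESeq2 called both as well, so that 9 members were lower with either. The median of all genes was -0.136, -0.412 under RLE size factors and -0.379 with DESeq2. All 7 mitochondrial and all 8 TRiC chaperone genes on the lists of related genes were lower as well.

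The abundant cytosolic members varied less. Hspa8 averaged 4312 ± 839 CPM in conventional type 1 dendritic cells (n = 16), 3088 ± 607 CPM in T cells (n = 29), 2583 ± 569 CPM in macrophages (n = 15), 757 ± 301 CPM in plasma cells (n = 15) and 575 ± 139 CPM in neutrophils (n = 23). The plasma cell and neutrophil means lay far below the others, whereas the T cell and macrophage levels overlapped within their SDs. Immunoglobulin transcripts took 65.5% of plasma cell UMIs, which lowers the CPM of other genes there. In the fit with TMM scaling, Hspa8 did not differ detectably between plasma cells and mature B cells (0.0098 ± 0.0856). Hsp90ab1, the constitutive HSP90, averaged 3337 ± 444 CPM in developing B cells (n = 13), 2633 ± 577 CPM in T cells and 357 ± 106 CPM in neutrophils. Hsp90aa1, its inducible counterpart, averaged 1150 ± 343 CPM in erythroid cells (n = 4) and 1000 ± 197 CPM in developing B cells, against 456 ± 176 CPM in T cells. Hsph1 was highest in T cells among the types with at least 20 cells in several groups, at 176 ± 94.1 CPM, and at 3.66 ± 4.98 CPM in neutrophils.

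Hspd1 (HSP60), the chaperonin ring subunit that works with the Hspe1 (HSP10) lid, was highest in erythroid cells, neutrophil precursors and developing B cells. Hspd1 averaged 497 ± 128 CPM in erythroid cells (n = 4), 454 ± 124 CPM in neutrophil precursors (n = 14) and 423 ± 115 CPM in developing B cells (n = 13), against 195 ± 66.9 CPM in mature B cells (n = 26) and 15.3 ± 10.8 CPM in neutrophils (n = 23). Hspe1 averaged 561 ± 151, 374 ± 95.9 and 439 ± 123 CPM in the same 3 types, 338 ± 103 CPM in mature B cells and 18.2 ± 13.6 CPM in neutrophils. With free RNA subtracted, the neutrophil means were 5.42 CPM for Hspd1, 8.93 CPM for Hspe1 and 1.85 CPM for Hsph1. The shares of cells with a UMI of Mki67, a proliferation gene, were 82.2%, 77.2% and 54.8% in the 3 types first named and 3.0% in mature B cells. The order did not hold throughout: monocytes (35.6%) and basophils (23.1%) had 120 ± 37.9 and 143 ± 59.7 CPM of Hspd1, below mature B cells. The part of cycling in these levels was not tested. Developing B cells were higher than mature B cells in 7 members, led by Hsp90aa1, the inducible HSP90 (1.41 ± 0.14), and Hspd1 (1.18 ± 0.14, adjusted p = 1.23e-13), where 28.5% of all genes were higher and 28.9% lower (57.4% called). All 8 TRiC genes and 17 of 22 tested cytosolic partners were higher too. Over 17 cell types, the genes with levels most like Hspd1 were Cct3, Set, Gar1, Eef1g and Ppie, with Spearman's rho between 0.958 and 0.971 among 6588 genes. Its promoter partner Hspe1 ranked 245th, with rho at 0.838.

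Plasma cells were higher than mature B cells in Dnajb1 (0.65 ± 0.14) and Hspa1b (0.90 ± 0.39), and lower in Hspd1, Hspe1 and Hsp90aa1, where 28.4% of genes were higher and 31.2% lower (59.6% called). Immunoglobulin transcripts took 65.5% of plasma cell UMIs, and the members summed to 1733.9 CPM, or 5027.7 CPM with immunoglobulin left out. The endoplasmic reticulum chaperones stood apart from the members here. All 14 on the list were higher, with a median of 3.10 against -0.069 for all genes, for example Creld2 (5.57 ± 0.14) and Sdf2l1 (4.33 ± 0.17).

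Mature B cells were lower than T cells in 6 members and higher in none (29.5% of genes lower, 27% higher, 56.5% called), with Hsph1 at -0.90 ± 0.12, Dnajb1 at -0.74 ± 0.11 and Dnaja1 at -0.73 ± 0.12. ILC2 were lower in 4 members and higher in none (25.5% of genes lower, 16.9% higher, 42.4% called), again with Hsph1 the largest difference among well-counted members, at -0.93 ± 0.12. Hspa8 did not differ detectably between ILC2 and T cells (0.0065 ± 0.07, interval -0.13 to 0.14). DESeq2 gave 0.12 ± 0.05 for it (adjusted p = 0.0348), and the calls of Hspa1a and Hsp90ab1 in ILC2 were lost under both other scalings. With DESeq2 the calls of Hspa1a in mature B cells against T cells and of Hspa1b in plasma cells against mature B cells were lost too. The share of higher genes among those called in ILC2 was 39.9%, against 53.6% under RLE size factors and 56.0% with DESeq2, and the median of all genes went from -0.062 to 0.035 and 0.087.

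Mast cells were few, 173 cells in all, but had the highest level of Dnajb1 of any cell type. The level was 2862 CPM in WT control, 2163 CPM in WT acute colitis, 3420 CPM in WT chronic colitis, 989 CPM in WT food allergy, 1737 CPM in APP control, 1448 CPM in APP acute colitis, 1038 CPM in APP chronic colitis and 1684 CPM in APP food allergy. The lowest of these had a 95% Poisson interval of 724 to 1319 CPM, which covers counting error only. In T cells of the same libraries, Dnajb1 lay between 74.3 and 243 CPM, so every mast cell value lay above every T cell value. Mast cells reached 20 cells in only 1 hashtag group, no test was made, and they were singled out after their values were seen. Nearly all were in high-background groups, as low-background groups held at most 1 mast cell each. In high-background T cell groups alone, Dnajb1 reached at most 233.5 CPM. The immediate-early genes summed to 52455 CPM in the mast cell group of at least 20 cells, against at most 6207.8 CPM in T cell groups. The part of these in the Dnajb1 level was not tested.

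**Figure D2:**
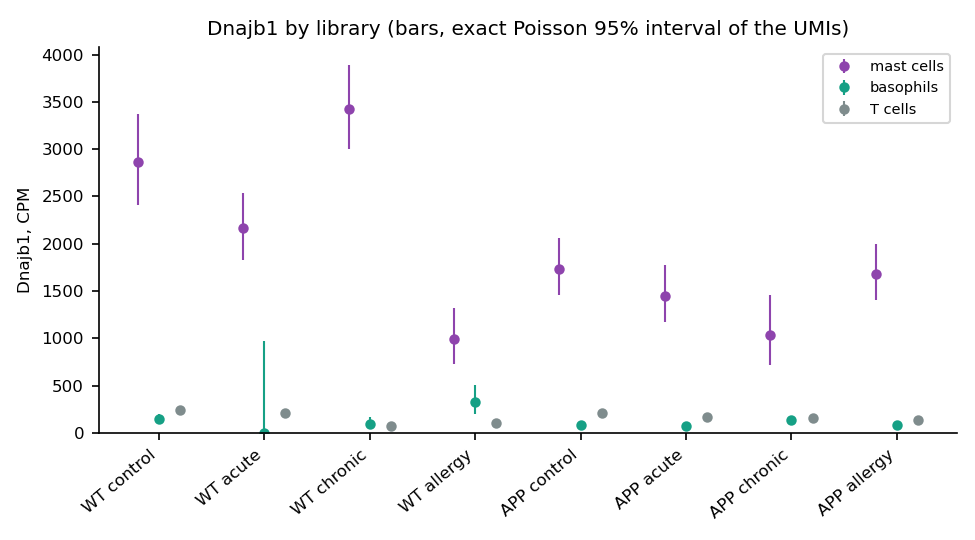
Dnajb1 in CPM by library in mast cells, basophils and T cells, with exact Poisson intervals of the UMIs. All 8 mast cell values lay above the T cell values, which ran from 74.3 to 243 CPM, and WT acute colitis held 1 basophil.

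The members were then related to the immediate-early level, as a readout of stress in the preparation. To keep the measure apart from the cells tested, it was taken in mature B cells for the fit in T cells. The comparison of neutrophil and T cell slopes used mature B cells too, and the other fits used T cells. Each slope is the log2 change per doubling of the immediate-early level within libraries. In T cells, no member was called, at an adjusted p under 0.05 or at an unadjusted p under 0.05, over 26 hashtag groups, whereas 17.9% of all genes were called (10.3% up, 7.6% down) and all 10 immediate-early genes rose. DESeq2 also called 0 members. Hspa8 had a slope of 0.08 ± 0.09 (interval -0.08 to 0.25), Dnaja1 of -0.07 ± 0.17 (-0.41 to 0.28), Dnajb1 of -0.15 ± 0.15 (-0.44 to 0.15) and Hsp90ab1 of 0.09 ± 0.13 (-0.16 to 0.34). The inducible pair was measured with less precision, with Hspa1a at 0.29 ± 0.42 (-0.54 to 1.13) and Hspa1b at 0.35 ± 0.28 (-0.19 to 0.89). A doubling of the gene per doubling of the immediate-early level lay outside the intervals of the members other than Hspa1a.

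The levels of the members by pair overlapped in T cells. Dnaja1, a J-domain cochaperone, ran from 225 to 824 CPM (median 544) in the high-background groups and from 229 to 951 CPM (median 689) in the low-background groups. The 10 members summed to between 5257.0 and 11104.5 CPM in the high pair and between 4886.2 and 10268.4 CPM in the low pair.

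Chaperones of the endoplasmic reticulum, which fold secreted and membrane proteins, did move with the immediate-early level in T cells. All 14 on the list rose, with a median slope of 0.37 against -0.005 for all genes, led by Sdf2l1 (0.80 ± 0.10), Dnajb9 (0.74 ± 0.11) and Manf (0.68 ± 0.06). Hspa5, the HSP70 of this compartment, ran from 354 to 729 CPM in the high pair and from 147 to 352 CPM in the low pair, with no overlap. Within library and pair, only 0.081% of all genes were called in T cells (0.0203% up). The rise of this list therefore cannot be told apart from a difference between the pairs. Of the other lists, 1 of 20 tested cytosolic partners rose (Hspa4), as did 1 of 7 mitochondrial genes (Lonp1), 1 of 8 TRiC genes fell (Cct4), and none of the 3 HSF regulators was called.

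**Figure D3:**
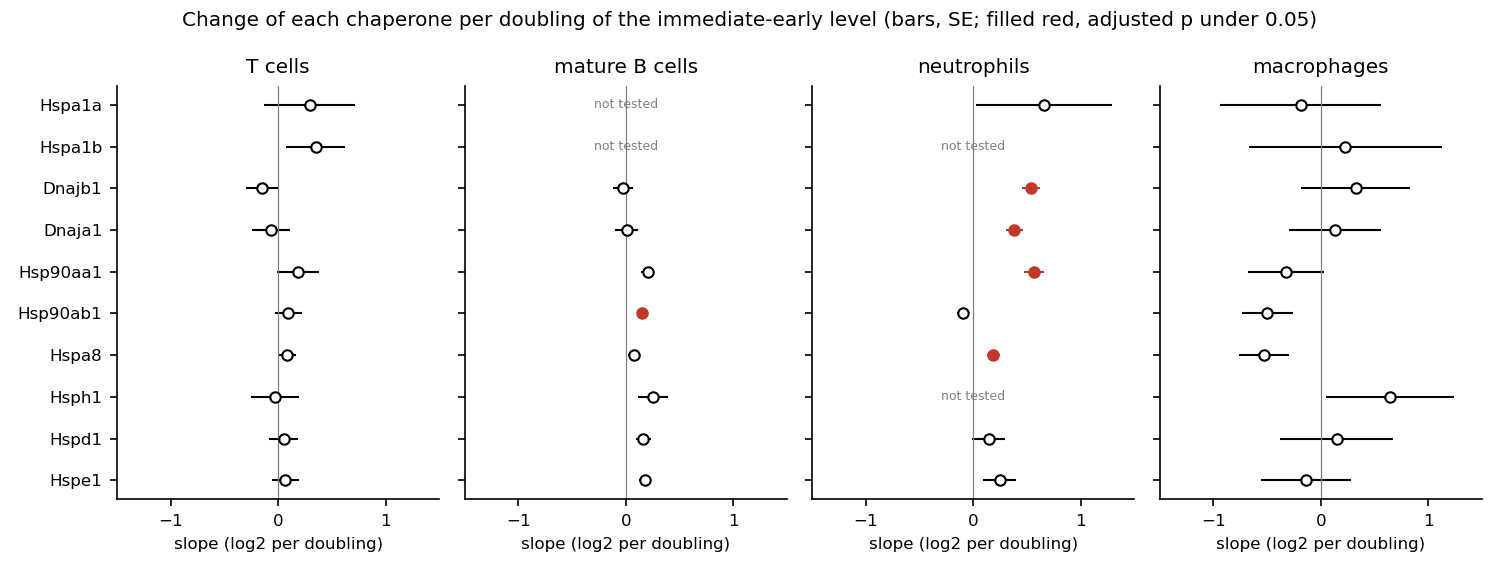
Slope of each chaperone gene on the immediate-early level in 4 cell types, in log2 change per doubling, with SE bars. Filled red points passed an adjusted p of 0.05: none in T cells and macrophages, Hsp90ab1 in mature B cells, and Dnajb1, Dnaja1, Hsp90aa1 and Hspa8 in neutrophils.

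In neutrophils, 4 of the 8 members tested rose with the immediate-early level (over 23 groups, 8.61% of all genes rose and 4.03% fell, 12.6% in all). Dnajb1 rose by 0.54 ± 0.08 per doubling (adjusted p = 3.53e-05), Hsp90aa1 by 0.57 ± 0.09 (adjusted p = 6.8e-05), Dnaja1 by 0.38 ± 0.08 (adjusted p = 0.00149) and Hspa8 by 0.19 ± 0.06 (adjusted p = 0.0404). Hsp90ab1, the constitutive HSP90, had a slope of -0.10 ± 0.06. Hspa1b and Hsph1 did not pass the filter on low counts in neutrophils.

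Dnajb1 in neutrophils ran from 51.1 to 123 CPM (median 69.6) in the 16 high-background groups and from 10.9 to 33.4 CPM (median 28.2) in the 7 low-background groups, with no overlap among groups of at least 20 cells. A low-background group of WT food allergy with 14 cells, left out of the fit, had 69.1 CPM. All 7 low-background groups fitted came from the APP libraries, and within each of these 4 libraries the low groups lay below the high ones. Hsp90aa1 ran from 45.1 to 140 CPM against 17.4 to 54.3 CPM, and the pairs overlapped. Dnaja1 ran from 152 to 421 CPM against 59.9 to 226 CPM. Hsp90ab1 ran from 225 to 564 CPM against 217 to 583 CPM, which is nearly the same span.

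Within library and pair, no member slope was called in neutrophils, where 0.149% of all genes were called. No member had an unadjusted p under 0.05, as 3.88% of all genes did. The slopes of the 4 members above were negative: -0.08 for Dnajb1, -0.25 for Dnaja1, -0.38 for Hsp90aa1 and -0.40 for Hspa8. The rise was thus seen between the pairs and was not found among groups of 1 pair. With so few genes called, that fit cannot tell whether the members follow the level within a pair. Other measures differed between the pairs in neutrophils as well. S100a8 and S100a9 took 17.2 to 30.4% of UMIs in the high pair and 30.4 to 32.7% in the low pair, and the granule genes Ngp, Camp and Ltf took 5.51 to 10.1% and 3.79 to 7.66%. UMIs per cell had no common direction: they were lower in the low pair in APP control and APP food allergy and higher in it in APP acute and APP chronic colitis. The part of these in the member levels was not tested.

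**Figure D4:**
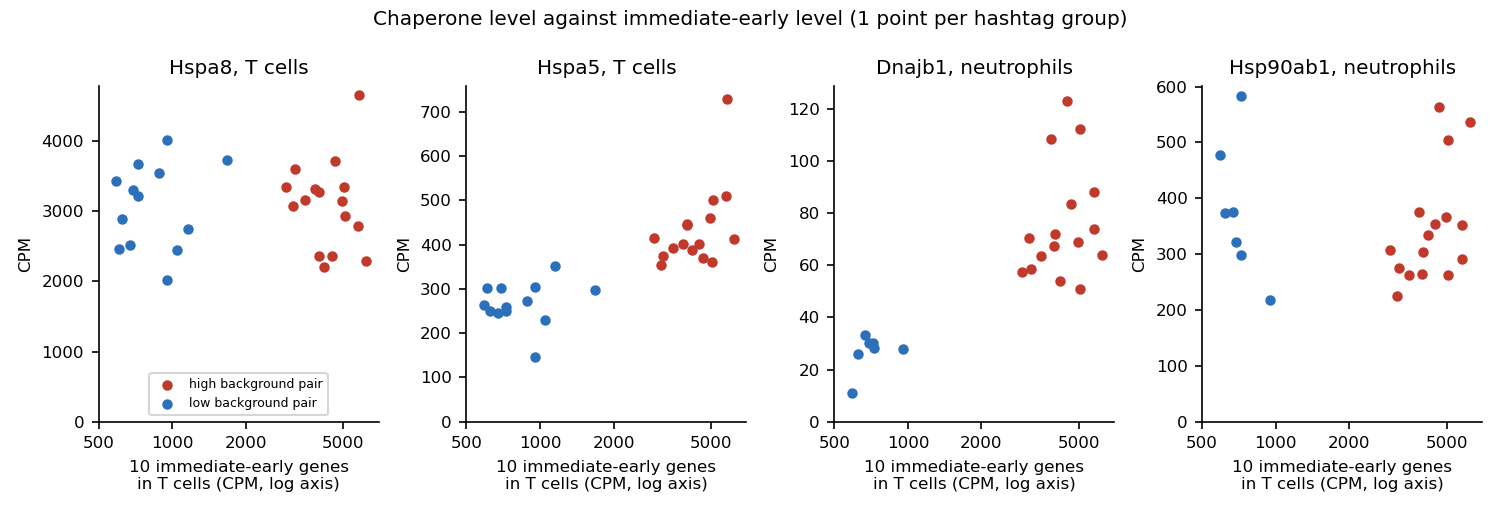
Level of Hspa8 and Hspa5 in T cells and of Dnajb1 and Hsp90ab1 in neutrophils, in CPM, against the summed CPM of 10 immediate-early genes in T cells of the same hashtag group, on a log axis. Neutrophil Dnajb1 was at least 51.1 CPM in the high-background pair and at most 33.4 CPM in the low pair, and Hspa5 in T cells also separated the pairs, whereas Hspa8 in T cells and Hsp90ab1 in neutrophils overlapped.

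The slopes of neutrophils and T cells were compared in 1 fit with the hashtag group as a block, in which 2.04% of genes differed (1.44% with a higher slope in neutrophils, 0.595% lower). The immediate-early level in this fit was that of mature B cells, over 22 groups. Its differences are therefore not those between the slopes given above. The slope of Dnaja1 was higher in neutrophils by 0.70 ± 0.19 (adjusted p = 0.0365), the only member called. For Dnajb1 the difference was 0.90 ± 0.25 (adjusted p = 0.0523). In mature B cells, 1 of 8 members tested was called, Hsp90ab1 (0.15 ± 0.04, adjusted p = 0.0298), where 1.83% of genes rose and 1.21% fell (3.04% in all). It was not called under RLE size factors, and its slope within library and pair was -0.46. In macrophages, none of 10 members was called by edgeR or DESeq2, where 0.0822% of genes rose and 0.0822% fell (0.164% in all). There, 2 members were under an unadjusted p of 0.05, as were 5.07% of all genes.

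The members' own level in other cells was used as a second covariate. When the slope was taken on the summed CPM of the 10 members in T cells of the same hashtag group, 5 of 8 members tested rose in mature B cells (0.175% of genes rose and 0.132% fell, 0.307% in all). Hsph1 rose by 1.84 ± 0.31 per doubling, Dnaja1 by 1.27 ± 0.25, Hspd1 by 0.86 ± 0.19, Hsp90aa1 by 0.84 ± 0.19 and Hspa8 by 0.77 ± 0.13. Within library and pair, 4 members were called, where 0.421% of genes were. In T cells, against the sum in mature B cells, Hspa8 was called (0.64 ± 0.11, adjusted p = 0.0174), 0.0321% of genes were called, and 9 of 10 members had an unadjusted p under 0.05, as did 8.48% of all genes. Within library and pair, none was called in T cells by edgeR, where 0.0101% of genes were. At an unadjusted p under 0.05 there were 8 members, beside 7.85% of all genes. Macrophages showed 1 member called, Hspa8 (0.72 ± 0.18, where 0.247% of genes rose and 0.103% fell, 0.349% in all). Neutrophils showed none, with 0% of genes called by edgeR. There, 2 members had an unadjusted p under 0.05, as did 1.59% of all genes, and they went opposite ways. Hspa8 rose (0.54 ± 0.23) and Hspa1a, which averaged only 3.54 CPM in neutrophils, fell (-5.44 ± 1.66). This covariate was added after the first results had been seen.

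Among conditions, the comparisons ask whether colitis, allergy or the APP genotype changed the members, with hashtag groups as the only replicates. In T cells, Dnajb1 had 345, 273, 139 and 211 CPM in the 4 WT control groups and 56.6, 85.7 and 86.1 CPM in the 3 WT chronic colitis groups with enough cells. All chronic colitis groups lay below all control groups. The log2 difference of Dnajb1 was -1.55 ± 0.35 (adjusted p = 0.0115), the only member called of 10 in this contrast, where 0.32% of all genes fell and 2.06% rose (2.38% in all). With the pair as a term the difference was -1.515 ± 0.363 (adjusted p = 0.0181). In the high-background pair alone it was -0.88 and in the low pair alone -2.36, neither of which was called. Without hashtag group 5 of WT chronic colitis it was -1.37 (adjusted p = 0.101). The low pair held only 1 chronic colitis group, and there Hspa1a, which averaged only 5.96 CPM in T cells, differed by -7.19.

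In the same contrast, 7 of 10 members had an unadjusted p under 0.05, as did 11.2% of all genes, and the median over members was -1.02 against -0.011 for all genes. Dnaja1 had 844, 852, 330 and 590 CPM in WT control and 344, 252 and 225 CPM in WT chronic colitis, which overlapped at 1 control group. Its difference was -1.13 ± 0.38 (adjusted p = 0.155), that of Hsph1 was -1.40 ± 0.51 (adjusted p = 0.21) and that of Hspa8 was -0.56 ± 0.18 (adjusted p = 0.132). WT food allergy gave 309, 294 and 229 CPM for Dnaja1, and a median over members of -0.86, with 6 of 10 members (and 9.25% of all genes) under an unadjusted p of 0.05 and none called by edgeR (1.57% of genes rose and 0.144% fell, 1.71% in all). In food allergy, DESeq2 called Dnajb1 (-1.06 ± 0.32, adjusted p = 0.0449) and Dnaja1 (-1.13 ± 0.33, adjusted p = 0.0392). A fit with the hashtag number as a block called both too, but hashtag numbers did not pair groups across libraries. Hashtags 4 and 5 were the low-background pair in WT control and the high-background pair in WT food allergy. That fit therefore adds no separate support. Both contrasts use the same WT control groups. Hspe1 was the exception in direction, at 0.28 ± 0.27 in chronic colitis and 0.08 ± 0.27 in food allergy.

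No member was called in T cells in WT acute colitis against control (2.31% of genes called, 2.19% up and 0.121% down), in APP acute colitis (0.21%, 0.11% up and 0.0993% down), APP chronic colitis (0.177%, 0.0331% up and 0.144% down) or APP food allergy (0.121%, 0.0442% up and 0.0773% down) against APP control, or in APP control against WT control (2.89%, 2.76% up and 0.132% down). At an unadjusted p under 0.05 these contrasts held 1, 0, 0, 1 and 1 members, beside 9.86%, 3.68%, 3.75%, 4.57% and 7.89% of all genes. The difference of the chronic colitis effect between genotypes was not called for any member either (1.68% of genes called, with 4 members and 7.97% of all genes under an unadjusted p of 0.05).

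**Figure D5:**
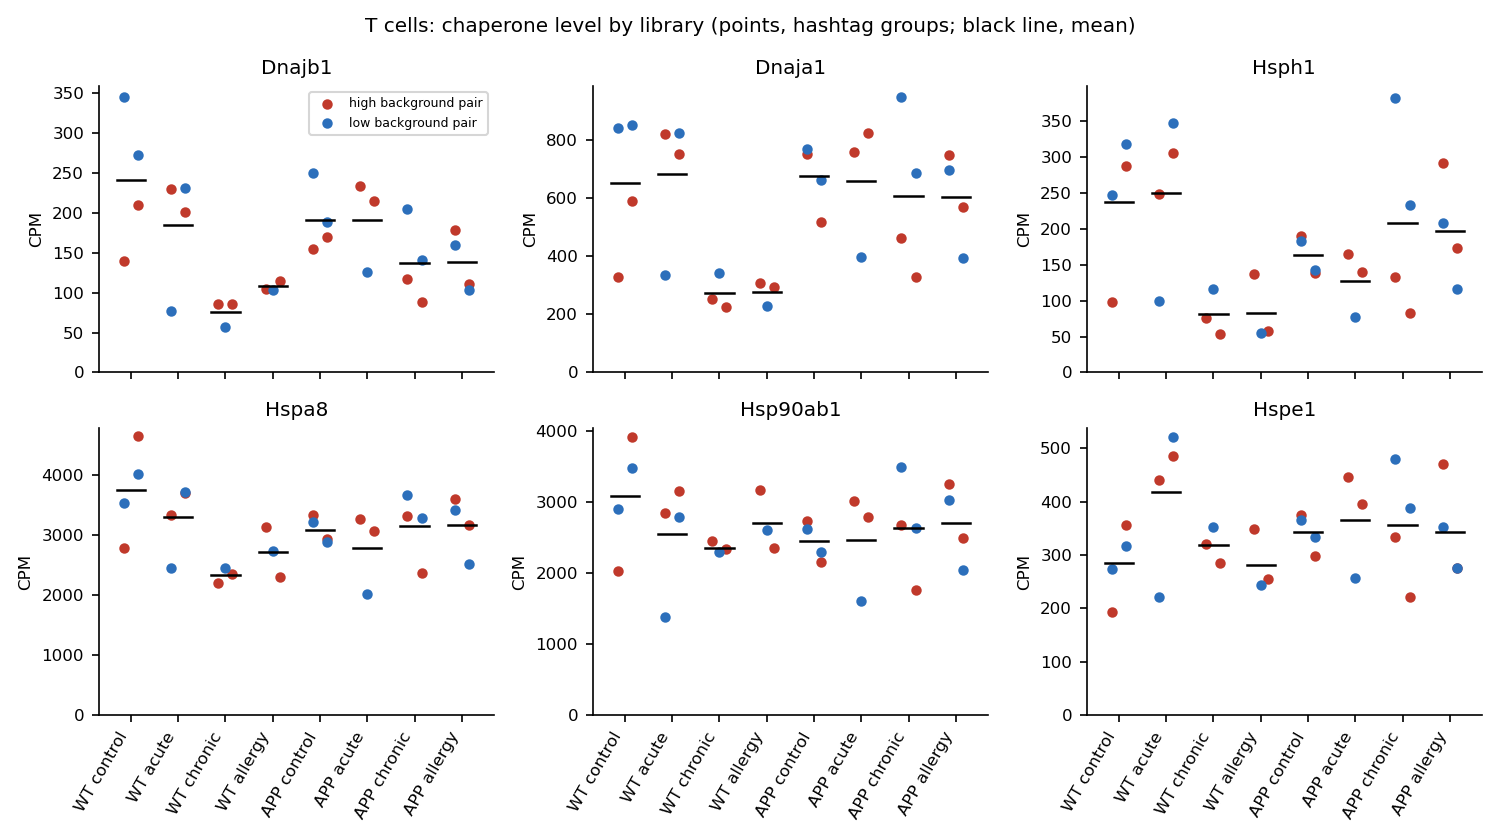
Level of 6 chaperone genes in T cells by library, in CPM, with 1 point per hashtag group coloured by background pair and the mean as a black line. Dnajb1 was at most 86.1 CPM in the WT chronic colitis groups and at least 139 CPM in the WT control groups, while Hspe1 overlapped between these libraries.

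In macrophages, Hspa8 was lower in WT chronic colitis (1514 CPM in the only group with at least 20 cells) than in WT control (2519 and 3715 CPM), a difference of -1.06 ± 0.23 (adjusted p = 0.0116, where 0.185% of genes fell and 0.74% rose, 0.925% in all). The chronic colitis arm thus had 1 sample and no replicate of its own, the p borrows the spread of the other groups, and the value compares that group with the controls rather than the conditions. Without WT control group 7 the difference was -0.75 (adjusted p = 0.186) and with a mitochondrial share up to 10% it was -0.77 (adjusted p = 0.068). Hspa1a in macrophages was 223 and 102 CPM in WT control, 240 and 140 CPM in WT acute colitis, 20.9 CPM in WT chronic colitis and 79.5 and 82.8 CPM in WT food allergy. It was 100 and 43.5 CPM in APP control, 151 and 136 CPM in APP acute colitis, 40.9 and 18.7 CPM in APP chronic colitis and 102 and 24.0 CPM in APP food allergy. The acute colitis groups overlapped with control in WT mice and lay above it in APP mice, and none of these differences was called in the fit of all groups (3.16%, 1.38%, 1.13%, 0.164% and 0.0616% of genes called in WT acute, WT allergy, APP acute, APP chronic and APP allergy against control). Other settings called Hspa1a lower in WT chronic colitis, at -3.06 without a filter on low counts and -3.07 with a mitochondrial share up to 10%. The value without a filter was again on that 1 group, with 2 UMIs of the gene. WT chronic colitis group 7 held 19 macrophages at the main mitochondrial limit. With a share up to 10% it may have reached 20 cells, so the call there may not rest on 1 group. With at least 50 cells per group, Hspa1a was called lower in WT food allergy, at -1.38. That fit kept only 1 WT control group, the one at 223 CPM with 68 cells, and dropped the other, with 42 cells. In mature B cells and neutrophils no member was called by edgeR in any of the contrasts between conditions in the fit of all groups. Genes called ran from 0 to 1.83% in mature B cells and from 0 to 2.24% in neutrophils. At an unadjusted p under 0.05 there were up to 4 members in mature B cells, in WT chronic colitis, beside 10.3% of all genes. Neutrophils had up to 3, in WT acute colitis (20.1% of all genes) and in the genotype difference of acute colitis (16.1%). DESeq2 called 2 in mature B cells, Dnajb1 and Dnaja1 in WT chronic colitis.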

How the data were processed

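The members and the gene lists were chosen with earlier results of these data known. Per the labels, the authors made the matrices with Cell Ranger 6.1.2 on mm10, whereas the file headers name another major version. The deposited values are UMI counts per gene and barcode, neither normalized nor filtered for cells. Kept barcodes had 500 or more UMIs, 200 or more genes and a mitochondrial share up to 5%. A hashtag was assigned at 50 or more counts and 5 times its background median, and cells with several hashtags, and thereby many doublets, were left out. Cells were typed by at least 3 markers of a type and a lead of 2 over the next. UMIs were summed per type and hashtag group (at least 20 cells), and fitted over all genes with the quasi-likelihood test of edgeR 4.0.16 in R 4.3.3, with Benjamini-Hochberg adjustment and a threshold of 0.05. DESeq2 1.42.0 was an alternative. Intervals are the estimate ± 1.96 SE. Poisson intervals cover counting error only. The fits were tested on simulated data.

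Genes named were the 10 members, up to 3 called genes with the largest change from each list in each contrast, the 5 genes most like Hspd1 over cell types, and the immediate-early genes. Hspa5, the Mki67, S100a8, S100a9 and granule gene shares, and mast cells were added after values had been seen. Of the 5 genes most like Hspa1a in T cells, 4 are given among the other observations and 1 is not reported here. Hashtag numbers did not pair groups across libraries: the correlation of same-numbered groups had a median of -0.045. Gene positions came from GENCODE vM21, and promoters from RefSeq GRCm38.p6. Tables and plots came from Python 3.11.15 (matplotlib 3.10.9, numpy 2.4.6, pandas 2.3.3, scipy 1.17.1). The slopes within pair, the pair terms and subsets in the condition fits, the genotype differences, the members' sum as covariate and the neutrophil minus T cell slope were chosen after seeing the data.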

Additional observations from a re-analysis of the deposited data

Results flagged for a closer look

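In 6 of 82 sets of 4 hashtag groups with a mean of at least 20 CPM, 1 group stood far from the others, and chance flags about 1 in 20 such sets. In T cells of WT acute colitis, hashtag group 6 had 337.0 CPM of Dnaja1 against 754.0 to 827.0 CPM in the others, and 130.2 CPM of Hspd1 against 231.6 to 246.0 CPM. That group held 33 T cells. In mature B cells of WT control, hashtag group 4 had 72.2 CPM of Hspa1b against 4.6 to 9.6 CPM, and hashtag group 7 had 630.4 CPM of Hsp90aa1 against 398.7 to 416.1 CPM. In mature B cells of APP control, hashtag group 6 had 498.0 CPM of Hspe1 against 237.7 to 268.4 CPM. In neutrophils of APP food allergy, hashtag group 7 had 23.6 CPM of Hsp90aa1 against 54.3 to 60.2 CPM. The slope of Dnaja1 on the immediate-early level was higher in neutrophils than in T cells by 0.70 ± 0.19, in a test of the difference itself (edgeR, adjusted p = 0.0365).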

How the results depend on the processing

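With 1 library per condition, and hashtag groups that may share a mouse, spread between mice and between preparations was not measured. In T cells no member was called on the immediate-early level under any alternative run. In mature B cells the 1 call became 2 with DESeq2, 2 with a stricter marker gate, 2 with the level measured in the cells themselves, 4 without a filter on low counts, and 0 with RLE size factors, without a library term and within library and pair, and it ran from 0 to 3 when each library was left out, with 0 without WT acute, APP control or APP acute colitis and 3 without APP chronic colitis. The 4 neutrophil calls became 0 within library and pair, where the slopes reversed to -0.0837 (Dnajb1), -0.2502 (Dnaja1), -0.3791 (Hsp90aa1) and -0.4014 (Hspa8), as did Hsp90ab1 in mature B cells, at -0.458, and they ran from 3 to 4 when each library was left out. Against T cells, neutrophils went from 7 to 9 calls with RLE or DESeq2, which added Dnajb1 and Dnaja1. Hspa8 in macrophages against T cells went to 0.0036 (DESeq2) and 0.0022 (RLE) and was no longer called. The 4 ILC2 calls became 2 with RLE size factors and 2 with profiles per library. The slope on the members' sum in T cells went from 1 call to 0 within library and pair.

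Between conditions, the 1 call in T cells became 4 with DESeq2 (Dnajb1 and Dnaja1 in chronic colitis and in food allergy of WT mice), 0 in the high pair alone and 3 with the hashtag number as a replicate block, and ran from 0 (without WT chronic colitis group 5) to 3 (without WT control group 6) when each group was left out. The block moved no count in mature B cells or neutrophils and could not be fitted in macrophages. Mature B cells went from 0 to 2 with DESeq2, 6 without a filter and 1 in the high pair alone, and from 0 to 2 when each group was left out (1 without WT control group 6, 2 without APP acute colitis group 7). Neutrophils went from 0 to 1 with the pair as a term, 3 in the high pair alone and 2 in the low pair alone, and from 0 to 1 when each group was left out (1 without APP acute colitis group 7). Macrophages went from 1 to 2 without a filter and 3 with at least 50 cells, and from 0 to 2 when each group was left out (without WT chronic colitis group 6 that contrast cannot be made, which gives 0; 0 without WT control group 7, 2 without APP chronic colitis group 6). Hspe1 in neutrophils was 34.9 CPM over all gated cells per library, against 18.2 CPM over hashtag groups. The cause was not tested. Among alternatives, 225 counts stayed within 1.5 times or at their value, 20 rose and 14 fell beyond it, 159 levels within 1 SD, and 400 values of single members kept direction and call, while 47 were no longer called.

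The pair term and the low pair alone could not be used in macrophages, which had no low-background group of 20 cells. With at least 50 cells per group, WT control macrophages had only 1 group, and the macrophage calls of that setting were all against it.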

Other observations

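Among 6026 genes with at least 20 CPM on average, those most like Hspa1a over 29 T cell hashtag groups, with library means removed, were Sos1, Nktr, Wdr55 and Mrps6, with Pearson's r between 0.681 and 0.732. The points share libraries and depth, Hspa1a had only 208 UMIs in T cells, and the values are a description without a test.

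Hspb1, the small heat-shock protein, and Bag3, an HSP70 exchange factor, were among the related genes with the largest differences between cell types. Hspb1 was higher in plasma cells than in mature B cells by 3.85 ± 0.38 on the log2 scale (edgeR, adjusted p = 6.62e-17) and higher in macrophages than in T cells by 2.88 ± 0.39 (adjusted p = 7.9e-11). Bag3 was higher in plasma cells than in mature B cells by 2.71 ± 0.30 (adjusted p = 1.29e-14), and lower than in T cells in mature B cells (-2.58 ± 0.24) and in ILC2 (-1.16 ± 0.20).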
